A study of Rattus norvegicus with 421 samples.

Results

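The genes described here are Oat, Inmt, Glul and Cyp2e1, which hepatocytes express around the central vein of the liver lobule. They were chosen by name, with earlier results of these data known, and every probe set of the array that names one of them alone was taken. This gave 6 probe sets for 4 genes, of 15866 probe sets and 10411 named genes on the array. Oat, Inmt and Cyp2e1 had 1 probe set each and Glul had 3, of which the one with the highest mean over all samples stands for the gene unless another is named. The comparison asked of every treated group, at every time, was whether these genes differed from the vehicle group that its label names, and which compounds lowered them together.

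The study profiled livers of male Wistar Hanover rats, aged 8 to 10 weeks at assignment, after oral gavage of carcinogens and non-carcinogens, on Affymetrix RAE230A arrays. The arrays gave 409 samples, 293 from treated and 116 from vehicle animals. There were 98 treated groups of 30 compounds and 38 vehicle groups. Groups held 3 animals, except 1 treated group of 2 and 2 vehicle groups of 4. Each dose group had 5 rats, and those put on arrays were picked for showing some histopathological change in the liver, which limits a group as a sample of the animals dosed. Livers were taken 1 day after the last dose, on days 1 to 14 of dosing, and for acetaminophen at 6, 12, 24 and 48 hours.

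Each treated group is named by its compound and time. Corn oil animals (30) were the controls of 2-nitrofluorene (2-NF, 44 mg/kg), C.I Direct Black (CIDB, 146 mg/kg), dimethylnitrosamine (DMN, 4 mg/kg), 3-methylcholanthrene (3-MC, 25 mg/kg), cyproterone acetate (CPA, 100 mg/kg), 1,4-dichlorobenzene (DCB, 300 mg/kg) and methylendianiline (MDA, 50 mg/kg). Saline animals (12) were the controls of acetaminophen (Aap, 4250 mg/kg) alone. CMC animals (74) were the controls of the other compounds. These were 2-acetylaminofluorene (2-AAF, 1.2 mg/kg), phenobarbital (PB, 80 mg/kg), acetamide (AA, 3000 mg/kg), aflatoxin B1 (AB1, 0.24 mg/kg), dehydroepiandrosterone (DHEA, 600 mg/kg), methylcarbamate (Mcarb, 400 mg/kg), methapyrilene HCl (MPy, 60 mg/kg), Thioacetamid (TAA, 19.2 mg/kg), Wy-14643 (Wy, 60 mg/kg), allyl alcohol (AlAl, 36 mg/kg), 4-(methylnitrosamino)-1-(3-pyridyl)-1-butanone (NNK, 20 mg/kg), N-Nitrososmorpholine (NNM, 3.5 mg/kg), diethyl-stilbestrol (DES, 10 mg/kg), ethionine (ETH, 200 mg/kg), piperonyl-butoxide (PBO, 1200 mg/kg) and N-nitrosopiperidine (NPip, 20 mg/kg). The drugs dosed together in 1 block of the study were cefuroxime (CFX, 250 mg/kg), clonidine (Clon, 0.1 mg/kg), ibuprofen (Ibup, 94 mg/kg), nifedipine (Nif, 3 mg/kg), prazosin (Praz, 1 mg/kg) and propranolol (Prop, 40 mg/kg). Of the vehicle groups, 23 were set against more than 1 treated group, up to 7, so that comparisons within a block and day often share their control animals.

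Hepatocytes divide their work along the lobule, from the portal tract, where blood enters, to the central vein, where it leaves. Wnt ligands made by endothelial cells of the central vein keep a narrow ring of hepatocytes in the pericentral state. Glul (glutamine synthetase) is the classical mark of that ring and turns ammonia that has passed the urea cycle into glutamine. Oat (ornithine aminotransferase) sits in the same zone and turns ornithine into a precursor of glutamate. Cyp2e1 is the ethanol-inducible cytochrome P450, which also activates acetaminophen and small nitrosamines to reactive products, and Inmt (indolethylamine N-methyltransferase) transfers a methyl group to amines. The tissue is whole liver, so fewer pericentral cells and less RNA per cell cannot be told apart in any value below.

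The sequence just upstream of each gene start is shown because the question is whether the genes moved together. These are the 250 bases before each start in RefSeq on the rat assembly GRCr8, each written in the direction of its gene and ending at the base before the start. Glul has 2 annotated starts. Capitals mark every match, on either strand, to the CCAAT box, to the TATA word TATAAA, or to 4 words of the Wnt-responsive TCF/LEF site. These words are CTTTGAA (in 4.68% of all rat promoter windows of this length), CTTTGAT (in 3.15% of them), CTTTGTA (in 3.21% of them) and CTTTGTT (in 5.14% of them).
Oat, chr1:196797755-196798004, - strand: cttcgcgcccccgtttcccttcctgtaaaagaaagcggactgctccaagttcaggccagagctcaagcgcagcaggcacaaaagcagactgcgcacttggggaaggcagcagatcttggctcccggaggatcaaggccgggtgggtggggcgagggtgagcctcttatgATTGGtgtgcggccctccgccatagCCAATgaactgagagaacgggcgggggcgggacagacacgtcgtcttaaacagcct
Inmt, chr4:85652756-85653005, - strand: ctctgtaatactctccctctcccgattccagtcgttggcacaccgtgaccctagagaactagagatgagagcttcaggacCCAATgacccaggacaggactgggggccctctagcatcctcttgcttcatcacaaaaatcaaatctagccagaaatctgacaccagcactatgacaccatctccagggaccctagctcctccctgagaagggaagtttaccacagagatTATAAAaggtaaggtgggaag
Glul first start, chr13:68519250-68519499, + strand: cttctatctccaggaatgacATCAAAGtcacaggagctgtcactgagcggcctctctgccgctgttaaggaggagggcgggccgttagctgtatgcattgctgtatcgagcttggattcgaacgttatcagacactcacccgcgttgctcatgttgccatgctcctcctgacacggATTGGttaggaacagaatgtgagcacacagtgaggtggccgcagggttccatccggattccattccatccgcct
Glul other start, chr13:68575816-68576065, + strand: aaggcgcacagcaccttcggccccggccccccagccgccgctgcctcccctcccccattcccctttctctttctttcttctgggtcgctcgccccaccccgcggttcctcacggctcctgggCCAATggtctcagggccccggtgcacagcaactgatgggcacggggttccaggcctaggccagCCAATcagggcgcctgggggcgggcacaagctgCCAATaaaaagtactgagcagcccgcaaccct
Cyp2e1, chr1:205269717-205269966, + strand: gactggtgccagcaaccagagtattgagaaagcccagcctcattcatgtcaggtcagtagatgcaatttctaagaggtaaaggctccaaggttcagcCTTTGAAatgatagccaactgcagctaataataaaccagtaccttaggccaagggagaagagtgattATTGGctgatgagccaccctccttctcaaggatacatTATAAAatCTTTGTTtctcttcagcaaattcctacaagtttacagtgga
All 5 windows held at least 1 CCAAT, which 34% of the 33465 rat windows held. A TCF/LEF word stood 230 bases before the first Glul start, on the opposite strand, and 153 and 41 bases before the Cyp2e1 start. Among all windows, 14.9% held at least 1 of these 4 words. The Oat and Inmt windows and the window of the other Glul start had none. TATAAA was found 21 bases before the Inmt start and 49 bases before the Cyp2e1 start, and in 12.9% of all windows. Also searched, and in none of the 5 windows, were GCGTG, the core of the site of the aryl hydrocarbon receptor (25.9% of all windows), and GTTAAT, a part of the HNF1 site (6.45%). A match describes letters only, and none of these was tested as a binding site. The windows differed in base composition, from 42.8% G and C for Cyp2e1 to 67.2% for the other Glul start.

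The deposited values are log2 signals, and array medians lay between 7.38 and 7.49. In 4 CMC vehicle groups with 6 arrays each, the arrays were split into the 12 closest pairs. Each pair was averaged and counted as 1 animal. Of these pairs, 10 were closer than every other pair of arrays within a group, and 2 were not. One that was not was arrays 1 and 2 of the vehicle group of NNK on day 14, with an SD of differences of 0.228. In that group array 1 was closer to array 3 (0.192). Transcripts of muscle or pancreas stood out on 7 arrays, among them Aap 6 h animal 3, NNK 14 d animal 1 and NPip 7 d animal 3. Leaving these arrays out changed none of the 69 calls of single values or times described below. A treated group was called lower or higher where the limma fit over all samples gave a change of at least 1.5-fold with an adjusted p under 0.05 over all probe sets of that comparison.

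Oat was called lower in 27 of 98 treated groups, from 13 compounds, and in none higher. Inmt was called lower in 22 groups from 10 compounds and higher in 1. Glul was called lower in 8 groups from 6 compounds and higher in 2. Cyp2e1 was called lower in 2 groups, those of Aap at 48 h and DMN on day 7, and higher in none. At an unadjusted p under 0.05, Oat, Inmt, Glul and Cyp2e1 were lower in 43, 31, 23 and 10 groups and higher in 0, 6, 7 and 20.

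Falls this frequent were rare on the array. Over all probe sets and groups, 0.711% of the tests were called lower and 0.996% higher, the median probe set was called lower in 0 groups, and 13189 probe sets were called lower in none. Only 7 probe sets (0.0441%) were called lower in as many groups as Oat, and 24 (0.151%) in as many as Inmt. For Glul the count was 422 (2.66%), and for Cyp2e1 it was 1812 (11.4%), so the number of Cyp2e1 calls by itself did not stand out. The probe set most often called lower was that of Prodh, proline dehydrogenase, whose product is in equilibrium with that of Oat, in 35 groups. The precision behind these counts differed between the genes, with a median standard error of a change of 0.34 for Oat, 0.51 for Inmt, 0.18 for Glul and 0.13 for Cyp2e1 on the log2 scale.

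**Figure D1:**
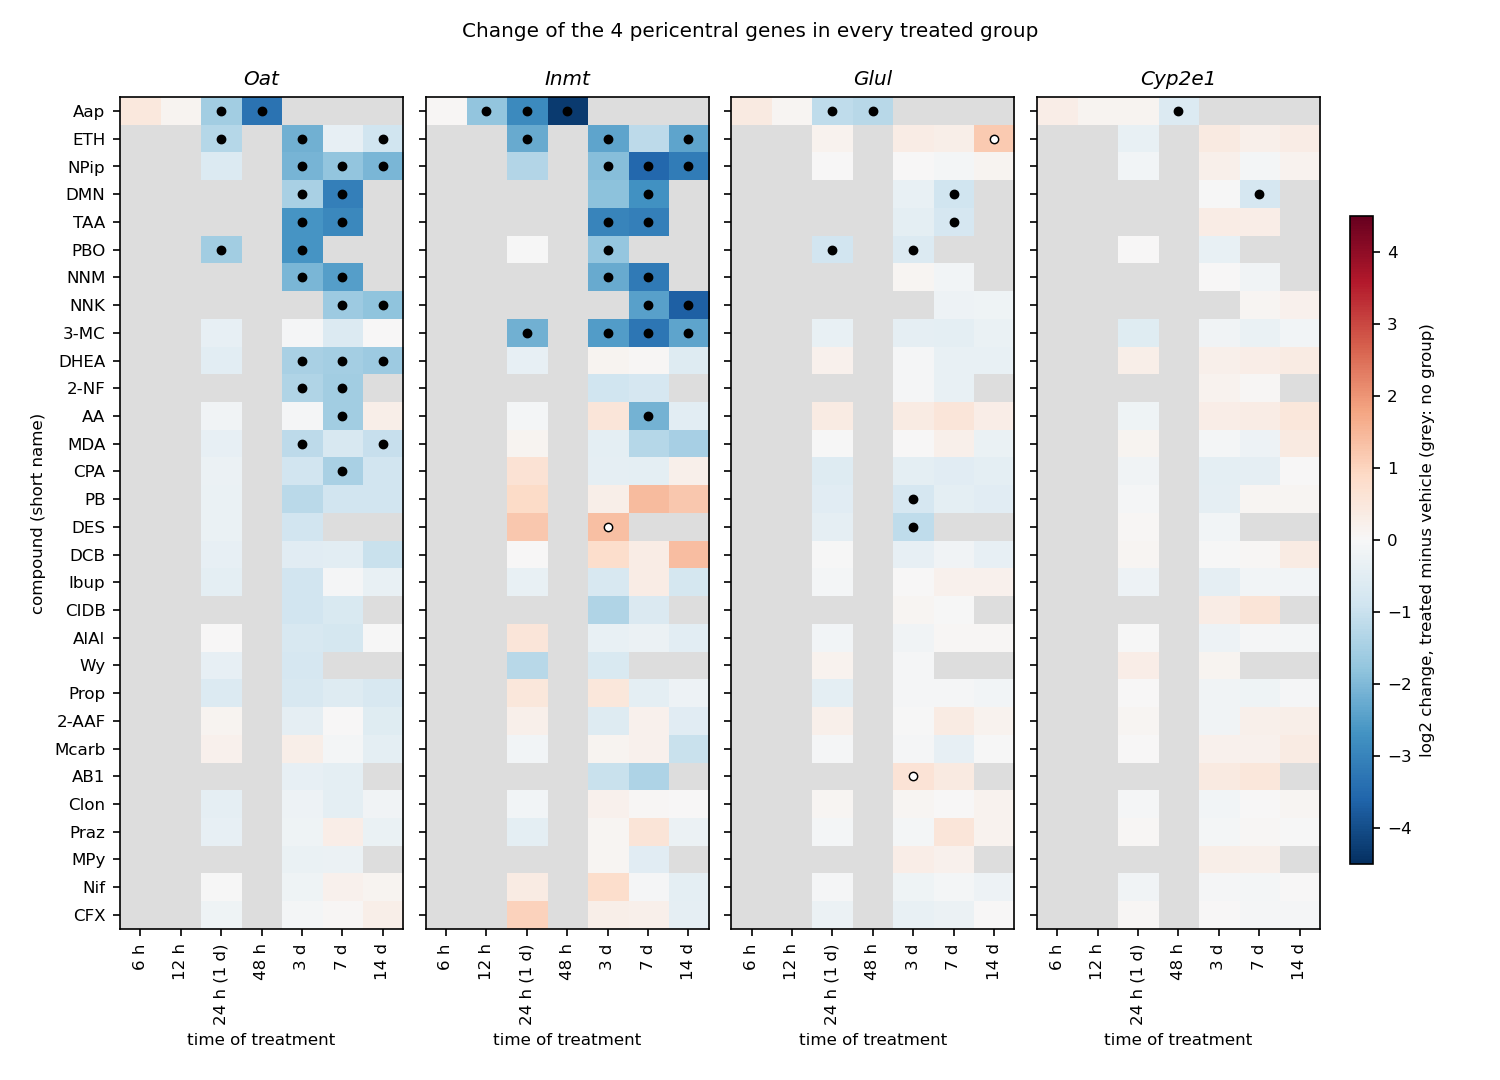
Log2 change against vehicle of Oat, Inmt, Glul and Cyp2e1 (panels) for 30 compounds (vertical axis) by time from 6 hours to 14 days (horizontal axis), with a black dot where the gene was called lower, a white dot where it was called higher and grey where no group exists. Oat and Inmt carry 27 and 22 black dots, Glul 8, and Cyp2e1 2, at Aap 48 h and DMN 7 d.

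All 4 genes were called lower together in 2 groups, and 3 of them in another 3, which came from Aap, DMN, TAA and PBO. In 13 groups 2 genes were lower, in 16 groups 1, and in 64 groups none. By compound, 14 never had a gene lower, 7 had at most 1 in a group, 5 had 2, TAA and PBO had 3, and Aap and DMN had all 4.

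Aap, which in overdose damages the centre of the lobule, gave the deepest falls of Oat and Inmt in the series, at 48 hours. The Oat log2 values were 8.76, 8.66 and 9.42 in the treated animals and 11.90, 12.29 and 12.59 in their saline animals, a change of -3.31 ± 0.34 (SE, n = 3 against 3) or 9.92-fold lower, adjusted p = 1.43e-17. For Inmt they were 7.34, 7.36 and 6.89 against 10.99, 11.73 and 11.78, a change of -4.31 ± 0.51 or 19.8-fold lower, adjusted p = 9.04e-14. Every treated animal lay below every saline animal for both genes. Here 4.02% of all probe sets were called lower. The Glul values were 10.05, 10.19 and 10.41 against 10.90, 11.61 and 11.92, 2.39-fold lower with adjusted p = 1.25e-09, again without overlap. Cyp2e1 read 13.29, 13.70 and 12.44 against 13.73, 13.83 and 13.76, 1.55-fold lower with adjusted p = 1.63e-05. Animal 3 alone lay far down for Cyp2e1, and without the third animal of each treated group the change was -0.28 with adjusted p = 0.101.

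At 24 hours after Aap, 4.07% of probe sets were called lower, and 3 of the genes were among them. Oat read 10.95, 10.52 and 10.77 against 12.33, 12.48 and 12.15, 2.98-fold lower with adjusted p = 3.98e-05. Inmt read 9.11, 8.67 and 7.06 against 11.12, 11.59 and 10.66, 7.2-fold lower with adjusted p = 6.66e-07. Both genes separated the groups fully, and so did Glul, with 10.35, 10.69 and 10.05 against 11.51, 11.68 and 11.33, 2.2-fold lower and adjusted p = 3.2e-08. Cyp2e1 stood at 14.01, 14.04 and 13.98 against 13.93, 13.87 and 13.86, a change of 0.13 with adjusted p = 0.478. Its treated values were the higher ones, by less than the call needs.

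Earlier after Aap, only Inmt was called. At 12 hours, where 1.11% of probe sets were called lower, Inmt read 10.42, 9.08 and 9.10 against 12.19, 11.10 and 10.68, a change of -1.79 with adjusted p = 0.0143. This call was lost without the second treated animals (-1.56, adjusted p = 0.187) or without the first vehicle animals (-1.36, adjusted p = 0.191). Oat changed by 0.14 (adjusted p = 0.917), Glul by 0.10 (0.885) and Cyp2e1 by 0.13 (0.739) at that time. At 6 hours the changes were 0.47 for Oat, 0.07 for Inmt, 0.41 for Glul and 0.29 for Cyp2e1, all with adjusted p of 0.127 or more.

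The difference between 48 and 6 hours was itself called for all 4 genes, among 5.28% of probe sets called lower between those times. It was -3.78 ± 0.48 for Oat (adjusted p = 6.55e-12), -4.37 ± 0.72 for Inmt (1.37e-07), -1.67 ± 0.26 for Glul (2.54e-08) and -0.92 ± 0.18 for Cyp2e1 (1.47e-05). Without the arrays holding muscle or pancreas transcripts, 1 of which was an Aap 6 h array, these became -3.86, -4.30, -1.54 and -0.94. In the pattern over time, Inmt was called first, at 12 hours, Oat and Glul from 24 hours, and Cyp2e1 at 48 hours only. An order among the genes was not tested. The Inmt call at 12 hours and the Cyp2e1 call at 48 hours were each lost in fits that left out animals.

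DMN, a nitrosamine that alkylates DNA after activation by Cyp2e1, lowered all 4 genes on day 7, in a group where only 0.347% of probe sets were called lower. The Oat values were 8.45, 8.93 and 8.88 against 11.87, 12.14 and 11.50 in the corn oil animals, 8.45-fold lower with adjusted p = 5.22e-14. Inmt read 7.45, 7.97 and 7.24 against 9.95, 10.17 and 10.66, 6.55-fold lower with adjusted p = 4.58e-05. Glul read 10.21, 11.03 and 10.47 against 11.38, 11.41 and 11.56, 1.84-fold lower with adjusted p = 0.000393. The groups did not overlap for any of these genes, and all 3 treated animals were also below for Cyp2e1, at 12.99, 13.29 and 12.73 against 13.64, 13.97 and 13.67. That was 1.69-fold lower with adjusted p = 3.27e-06, the deepest Cyp2e1 change of the series (-0.76 on the log2 scale).

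On day 3 of DMN, with 0.0315% of probe sets called lower, only Oat was called. It read 9.77, 9.09 and 10.98 against 11.08, 11.92 and 11.20, a change of -1.46 with adjusted p = 0.0173, and leaving out the animals of 1 number at a time took the adjusted p to between 0.0608 and 0.331 where the call was lost. Treated animal 3 lay just below the lowest vehicle animal. Inmt read 8.05, 8.04 and 9.17 against 9.28, 11.19 and 10.35, a change of -1.86 with adjusted p = 0.0726. The same animal was the highest of the treated animals for both genes. Glul changed by -0.32 (adjusted p = 0.674). Between day 3 and day 7, Cyp2e1 was among the 0.0315% of probe sets called lower, with a difference of -0.76 and adjusted p = 0.0233, and the Oat difference of -1.62 was not called (adjusted p = 0.110).

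TAA, a hepatotoxicant that needs metabolic activation, lowered Oat, Inmt and Glul on day 7, where 0.737% of probe sets were called lower. Oat read 8.39, 9.47 and 9.70 against 11.72, 11.93 and 12.62, 7.48-fold lower with adjusted p = 1.64e-12. Inmt read 7.52, 7.39 and 7.40 against 10.21, 10.65 and 10.63, 8.37-fold lower with adjusted p = 1.46e-06. Treated and vehicle animals were far apart for both. The gap was narrower for Glul, at 10.20, 10.53 and 10.51 against 11.23, 10.87 and 11.37, 1.67-fold lower with adjusted p = 0.00267, and without the third vehicle animals the change was -0.63 with adjusted p = 0.0513. Cyp2e1 did not take part, with 13.98, 13.95 and 13.94 against 13.54, 13.59 and 13.88 (change 0.29, adjusted p = 0.15).

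Already on day 3 of TAA, with 0.807% of probe sets called lower, Oat and Inmt were down. Oat read 9.73, 9.27 and 9.18 against 11.66, 12.17 and 12.33, 6.33-fold lower with adjusted p = 7.79e-11. Inmt read 7.58, 7.54 and 7.16 against 9.25, 11.45 and 10.47, 7.8-fold lower with adjusted p = 2.76e-06. The treated animals were close together and the spread was in the vehicle animals. Glul changed by -0.43 (adjusted p = 0.127) and Cyp2e1 by 0.33 (adjusted p = 0.0793).

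PBO, an insecticide synergist that acts on cytochrome P450 enzymes, lowered Oat, Inmt and Glul on day 3, among 1.13% of probe sets called lower. Oat read 9.03, 9.24 and 9.97 in 3 treated animals against 12.27, 12.08, 11.97 and 11.94 in 4 vehicle animals, 6.28-fold lower with adjusted p = 9.77e-13. Inmt read 9.88, 9.42 and 8.28 against 10.86, 10.88, 11.15 and 10.90, 3.37-fold lower with adjusted p = 0.00548. Without the third treated animals the Inmt change was -1.30 with adjusted p = 0.0721, so 1 animal decided that call. Glul read 10.73, 10.70 and 10.81 against 11.37, 11.46, 11.23 and 11.41, 1.54-fold lower with adjusted p = 0.00663, and every treated animal was below. The Cyp2e1 change of -0.34 had adjusted p = 0.0503.

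One day into PBO, Oat and Glul were called lower and Inmt was level, among 2.31% of probe sets called lower. Oat read 10.17, 10.83 and 10.78 against 12.27, 12.05, 12.11 and 12.24, 2.97-fold lower with adjusted p = 1.62e-05. Glul read 10.61, 10.47 and 10.47 against 11.22, 11.42, 11.24 and 11.63, 1.82-fold lower with adjusted p = 1.49e-05. Inmt read 11.01, 10.87 and 11.31 against 10.93, 11.27, 11.07 and 11.02, so its groups overlapped (change -0.01, adjusted p = 0.991). By the main Glul probe set, this was the only group with Oat and Glul but not Inmt lower.

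**Figure D2:**
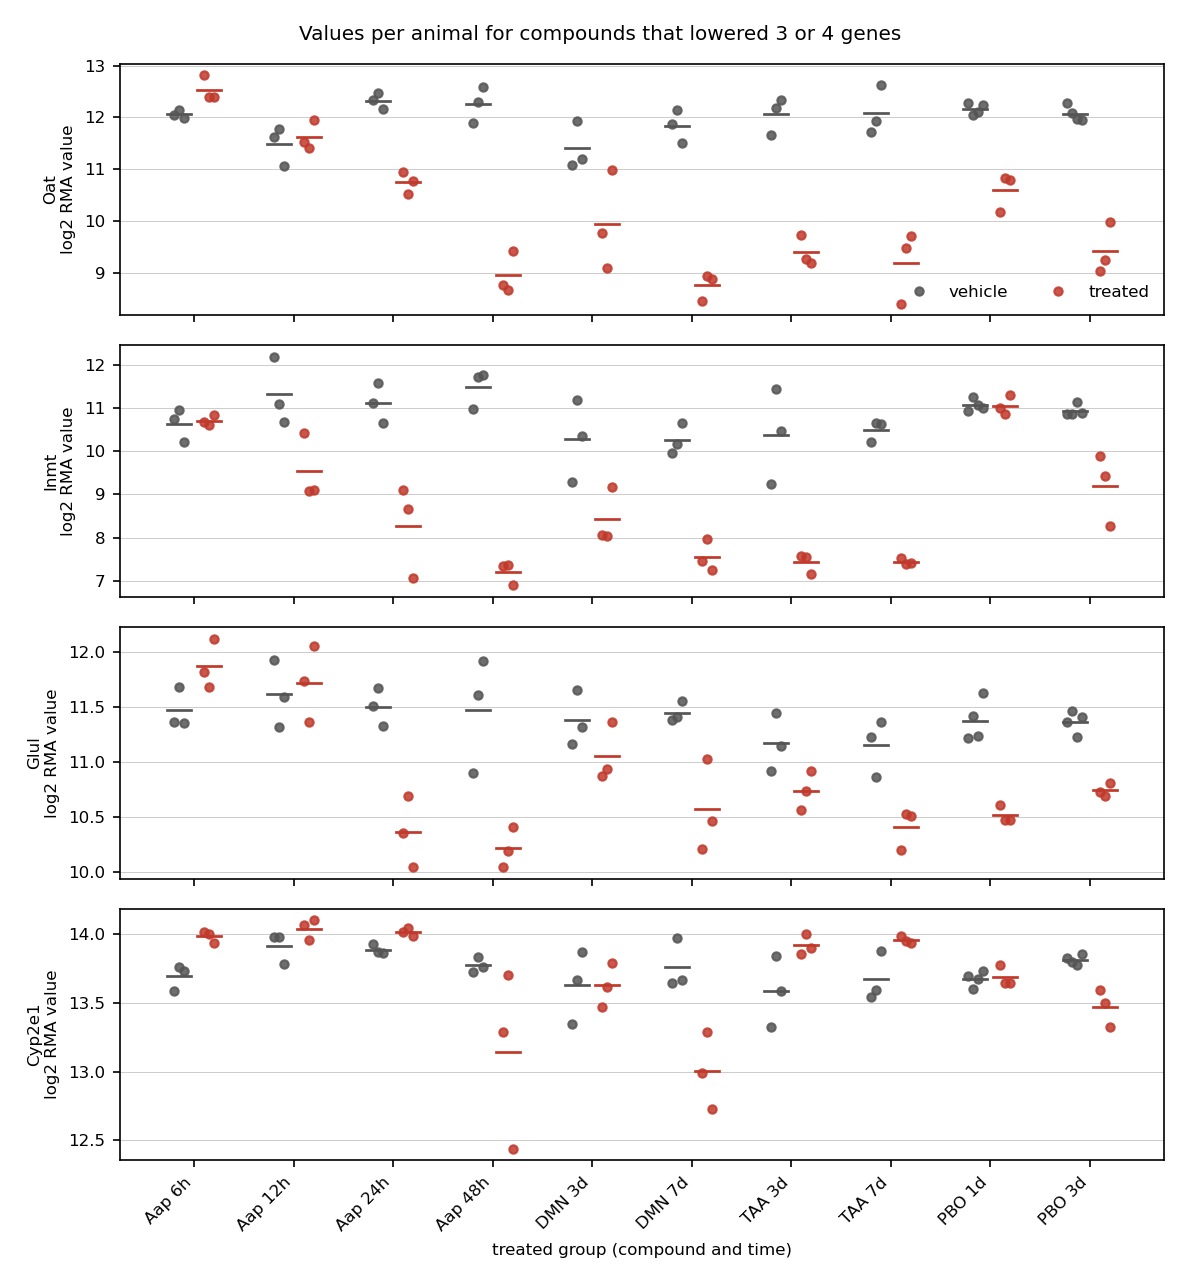
Log2 value of each animal (points) for Oat, Inmt, Glul and Cyp2e1 in the groups of Aap, DMN, TAA and PBO (red) and their vehicle groups (grey), with bars at the group means. The Oat animals of Aap at 48 hours sit between 8.66 and 9.42 and those of DMN on day 7 between 8.45 and 8.93, below all their vehicle animals, while the Cyp2e1 animals move little outside these 2 groups.

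In 12 further groups Oat and Inmt were lower and neither Cyp2e1 nor the main Glul probe set was. Another Glul probe set was lower in 3 of them, 1367632_at on day 3 of TAA (-1.02, adjusted p = 0.000211) and day 7 of NNM (-0.78, 0.0192), and 1367633_at on day 1 of ETH (-0.78, 0.000764). Counted by any Glul probe set, 8 groups had 3 or more of the genes lower. Across the 12 groups, Oat changed by -2.66 to -0.90 (median -1.93) and Inmt by -3.66 to -1.91 (median -2.41). In the same groups the Glul change ran from -0.43 to 1.18 (median 0.05) and that of Cyp2e1 from -0.35 to 0.39 (median 0.18). They came from TAA on day 3, the nitrosamines NNK, NNM and NPip, ETH and AA.

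NNM, NNK and NPip lowered Oat and Inmt in groups where at most 0.372% of probe sets were called lower. Between 0.176% (NNK on day 7) and 1.42% (NPip on day 7) were called higher. On day 7 of NNM (0.372% of probe sets called lower), Oat read 9.81, 10.02 and 9.94 against 12.60, 12.40 and 12.16, 5.51-fold lower with adjusted p = 2.55e-09. Inmt read 8.09, 7.89 and 7.74 against 11.16, 10.86 and 11.21, 9.02-fold lower with adjusted p = 8.02e-07. The treated animals were close to each other for both genes, and the nearest vehicle animal was far above. On day 3 of NNM (0.113%), the changes were -2.07 for Oat (adjusted p = 2.71e-06) and -2.26 for Inmt (0.00266), the latter lost without the first (0.0718) or the third vehicle animals (0.0634).

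On day 14 of NNK (0.221%), Oat read 10.89, 9.89 and 10.73 against 12.32, 12.33 and 12.28, 3.5-fold lower with adjusted p = 4.82e-05. Inmt read 7.94, 7.88 and 7.47 against 11.70, 11.11 and 11.47, 12.7-fold lower with adjusted p = 4.53e-09. That was the deepest Inmt fall after that of Aap at 48 hours, and without animal 1, whose array held pancreas transcripts, it was -3.75 with adjusted p = 2.13e-07. On day 7 of NNK (0.0378%), the changes were -1.62 for Oat (adjusted p = 0.00164) and -2.43 for Inmt (0.00173), the latter lost without the first treated animals (0.0686). NNM and NNK shared their vehicle animals on day 7.

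NPip had 4 time points and no call on day 1, when Oat changed by -0.61 and Inmt by -1.32. On day 3 (0.17%) Oat changed by -2.09 (adjusted p = 2.02e-06) and Inmt by -1.91 (0.0262, not called in some fits that left out animals). On day 7 (0.24%) Inmt read 8.08, 7.61 and 7.80 against 11.54, 11.54 and 11.06, 11.7-fold lower with adjusted p = 8.88e-09. Oat read 10.21, 9.86 and 10.54 against 12.51, 11.68 and 11.79 (change -1.79, adjusted p = 2.94e-05). No treated animal reached a vehicle animal, and without animal 3, whose array held muscle transcripts, the changes were -3.53 and -1.96. On day 14 (0.29%) they were -3.14 for Inmt (adjusted p = 1.28e-06) and -2.05 for Oat (1.89e-06).

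Of the nitrosamines, NNK and NPip were given at the same dose, 20 mg/kg, and share days 7 and 14, so that 8 pairs of changes could be set against each other. NNK carries a pyridine ring on a ketone chain and NPip is a cyclic nitrosamine. None of the 8 differences was called, against 0.542% of all probe sets on day 7 and 0.0189% on day 14. For Inmt, NNK minus NPip was 1.12 on day 7 (95% interval -0.30 to 2.53, adjusted p = 0.646) and -0.53 on day 14 (-1.94 to 0.89, adjusted p = 0.903). For Oat it was 0.17 (-0.77 to 1.11, adjusted p = 0.942) and 0.24 (-0.70 to 1.18, adjusted p = 0.939). The intervals leave room for differences of more than 2-fold in Inmt. For Glul the intervals lay between -0.82 and 0.37 and for Cyp2e1 between -0.34 and 0.54. The compounds were dosed in different blocks with their own vehicle animals, and equal weights are not equal numbers of molecules.

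DMN (4 mg/kg) and NNM (3.5 mg/kg) differed in dose, and so did the amide pair AA (3000 mg/kg) and TAA (19.2 mg/kg), in which sulphur takes the place of oxygen. On day 7, TAA gave changes of -2.90 for Oat and -3.07 for Inmt. Beside these, AA gave -1.56 for Oat (adjusted p = 0.000125) and -2.14 for Inmt (0.000597) among 1.35% of probe sets called lower, against the same vehicle animals. The AA animals were unlike each other, at 11.38, 10.09 and 10.11 for Oat and 9.95, 7.42 and 7.70 for Inmt, with animal 1 nearest the vehicle animals in both genes. On day 3 AA changed Oat by -0.06 and Inmt by 0.56, and on day 14 by 0.26 and -0.46, none called.

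ETH, an analogue of methionine that depletes ATP and traps methyl donors, lowered Oat and Inmt on days 1, 3 and 14 but not on day 7. Large shares of all probe sets were called lower in those groups, at 4.39%, 4.97% and 3.01%. The Oat changes were -1.28 (adjusted p = 0.000425), -2.16 (7.09e-10) and -0.90 (0.0357), and those of Inmt were -2.27 (2.68e-05), -2.39 (6.65e-06) and -2.37 (6.02e-05). The Oat calls of days 1 and 14 were not stable, since without the second treated animals the day 1 change was -0.80 with adjusted p = 0.0783, and the day 14 call was also lost in some fits that left out animals. On day 7 Oat changed by -0.39 (adjusted p = 0.498) and Inmt by -1.18 (0.0962). Glul went the other way on day 14, at 12.46, 12.01 and 12.45 against 11.25, 11.19 and 10.94, a rise of 1.18 with adjusted p = 1.94e-08 among 4.29% of probe sets called higher. The treated animals were all above. From day 1 to day 14 the difference was 1.01 ± 0.25 for Glul (adjusted p = 0.00128) and 0.67 ± 0.18 for Cyp2e1 (0.00242), among 4.06% of probe sets called higher, and the latter was not called without the second treated animals (0.45, adjusted p = 0.135).

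Some compounds lowered a single gene. 3-MC, a ligand of the aryl hydrocarbon receptor, lowered Inmt at all 4 times and no other gene at any. On day 7 (0.429% of probe sets called lower), Inmt read 8.71, 7.76 and 7.38 against 11.58, 10.73 and 11.27, 9.5-fold lower with adjusted p = 2.6e-07. All treated animals were well below. The changes were -2.16 on day 1 (0.12%, adjusted p = 0.00915, lost in some fits without 1 animal number), -2.52 on day 3 (0.0819%, adjusted p = 0.00038) and -2.36 on day 14 (0.857%, adjusted p = 0.00043). Oat changed by -0.35, -0.04, -0.63 and 0.01 over these days, none called.

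Oat alone was lower under DHEA, 2-NF, CPA and MDA, with Glul taken by its main probe set. The Glul probe set 1367632_at was lower on days 7 and 14 of DHEA (-0.73 and -0.62) and on day 1 of CPA (-0.80). DHEA, a steroid that induces peroxisomes in rat liver, lowered Oat on days 3, 7 and 14. The changes were -1.47 (adjusted p = 0.000418), -1.52 (0.000152) and -1.64 (5.1e-05), where 1.59%, 2.43% and 2.22% of probe sets were called lower. Its Inmt changes on those days were 0.12, 0.05 and -0.60. Under 2-NF the Oat changes were -1.36 on day 3 (0.359%, adjusted p = 0.00479, lost in some fits without 1 animal number) and -1.58 on day 7 (0.372%, adjusted p = 0.000521). CPA changed it by -1.46 on day 7 (1.05%, adjusted p = 0.00144).

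Under MDA the animals of a group differed. On day 14 (0.719%), Oat read 10.24, 9.88 and 11.74 against 12.21, 11.71 and 11.09, so the groups overlapped, and the change of -1.05 had adjusted p = 0.0398. Inmt in the same treated animals read 8.12, 8.55 and 11.50, with the same 2 animals low (change -1.49, adjusted p = 0.0568). On day 7, animal 1 read 9.18 for Oat and 8.57 for Inmt, while the others read 11.75 and 11.61 for Oat and 10.18 and 11.37 for Inmt. On day 3 (0.158%) the Oat change was -1.16 with adjusted p = 0.0416. Both MDA calls of Oat were lost in some fits that left out animals.

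Glul alone was lower under PB and DES, each on day 3. For DES, a synthetic oestrogen (1.85% of probe sets called lower), Glul read 9.67, 10.54 and 10.51 against 11.37, 11.46, 11.23 and 11.41, 2.19-fold lower with adjusted p = 2.08e-08. In the same group Inmt was among the 1.37% called higher, at 12.50, 12.12 and 12.31 against 10.86, 10.88, 11.15 and 10.90, a rise of 1.36 with adjusted p = 0.044. No animals overlapped in either gene, but the Inmt call was lost whichever animal number was left out (adjusted p = 0.0527 to 0.131). For PB, an inducer of cytochrome P450 enzymes (0.0693%), Glul read 10.87, 10.49 and 10.54 against 11.45, 11.35 and 11.36, a change of -0.75 with adjusted p = 0.0182, lost in some fits without 1 animal number. Inmt under PB changed by 0.86, 0.28, 1.44 and 1.20 over the 4 days, with no call. The remaining call was Glul on day 3 of AB1 (1.2% called higher), at 11.93, 11.67 and 11.75 against 10.92, 11.45 and 11.15, a rise of 0.61 with adjusted p = 0.0228 that was lost in some fits without 1 animal number.

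Cyp2e1 had several significant changes smaller than 1.5-fold (0.58 on the log2 scale). It was 0.58 higher on day 7 of CIDB (adjusted p = 0.000221), 0.51 higher on day 7 of AB1 (0.00203) and on day 14 of AA (0.00729), and 0.39 higher on day 3 of ETH (0.00479). On day 1 of 3-MC the change was -0.56 with adjusted p = 0.00644. Its standard error was the smallest of the 4 genes, so that small differences passed the p threshold.

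The 14 compounds with no gene lower were 2-AAF, AB1, AlAl, CFX, CIDB, Clon, DCB, Ibup, MPy, Mcarb, Nif, Praz, Prop and Wy, with 48 groups. At an unadjusted p under 0.05, Oat was lower in 9 of these 48, Inmt in 4, Glul in 4 and Cyp2e1 in 1. Higher at that threshold were Oat in 0, Inmt in 2, Glul in 4 and Cyp2e1 in 8. Chance alone passes about 1 in 20 such tests, both directions together. Over the 24 groups of the 6 drugs in 1 block, the Oat change lay between -0.88 and 0.29 and the Inmt change between -0.77 and 1.03. Including single groups of the other compounds, 64 groups had no gene lower, and Oat was below its vehicle mean in 52 of them (median -0.37), against 32 of 64 for Inmt (median -0.02). Over all 98 groups the Oat change was below 0 in 84 and the Inmt change in 62. Since groups of a block share vehicle animals, these counts are not independent.

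**Figure D3:**
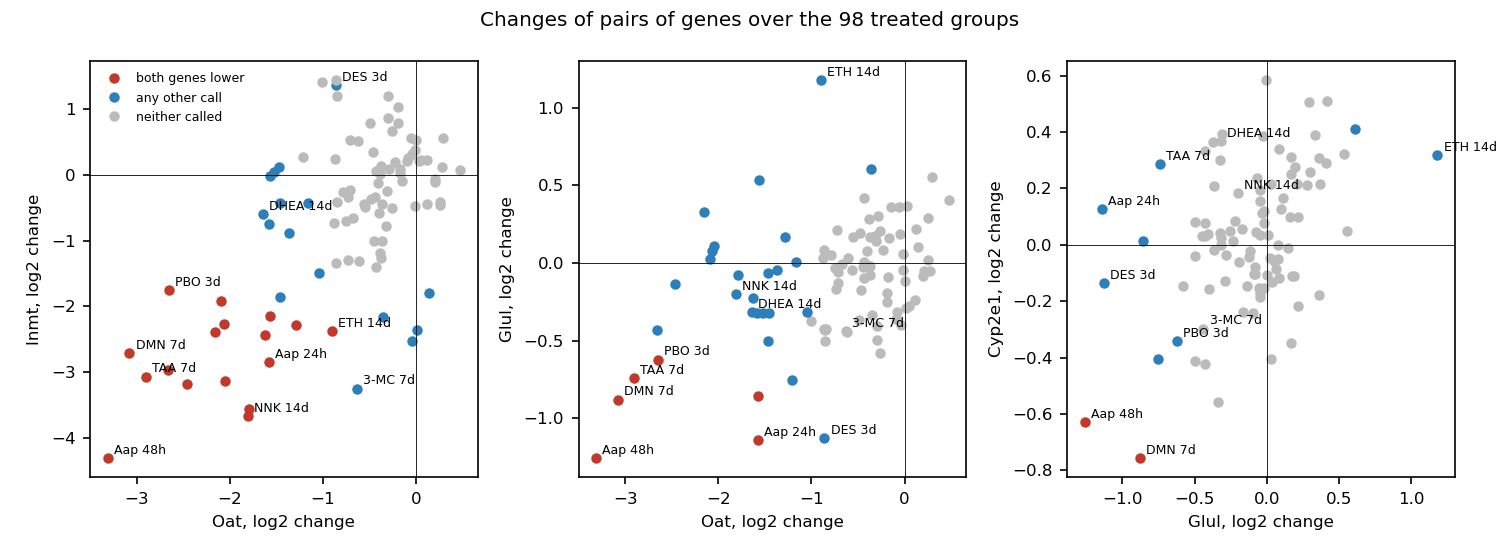
Log2 change of one gene against that of another in the 98 treated groups, for Oat and Inmt, Oat and Glul, and Glul and Cyp2e1, in red where both were called lower, in blue for any other call and in grey for none. Oat and Inmt were both lower in 17 groups, Oat and Glul in 6, and Glul and Cyp2e1 in 2.

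Oat and Inmt were lower together in 17 groups, Oat and Glul in 6, Inmt and Glul in 5, and each pair with Cyp2e1 in 2. Of the 27 Oat groups and the 22 Inmt groups, the 17 shared ones left Oat lower without Inmt in 10 and Inmt without Oat in 5, the latter being 3-MC at 4 times and Aap at 12 hours. Over the 98 groups, which share vehicle animals, Pearson's r of the changes was 0.62 for Oat and Inmt (rho 0.49), 0.42 for Oat and Glul (rho 0.35) and 0.43 for Glul and Cyp2e1 (rho 0.35). It was 0.14 for Oat and Cyp2e1, 0.05 for Inmt and Glul, and 0.09 for Inmt and Cyp2e1. The pair with the most shared calls was thus also the pair with the highest r.

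By the same measure, over all named genes, the changes most like those of Oat were of Dpyd (r = 0.76), Fggy (0.72), Avpr1a (0.65), Mpv17l (0.62) and Inmt (0.62). Those most like Inmt were of Cd14 (0.71), Adk (0.68), Msra (0.67), Echdc2 (0.66) and Kynu (0.63). Glul was nearest to Fmo1 (0.61), St8sia3 (0.60), Cyp7a1 (0.60), Slc13a4 (0.58) and Tcn2 (0.57). For Cyp2e1 the nearest was Glud1 (0.64), glutamate dehydrogenase, then Nceh1 (0.53), Txnip (0.52), Fam171b (0.50) and Ankrd13c (0.50). Inmt was thus among the 5 genes nearest to Oat, and no other of the 4 genes was among the 5 nearest to another.

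The 116 vehicle animals gave a view of the genes without a compound. Vehicle group means lay between 11.40 and 12.42 for Oat, 10.20 and 11.71 for Inmt, 11.06 and 11.63 for Glul, and 13.49 and 14.00 for Cyp2e1 on each probe set's log2 scale, which cannot be compared between probe sets. The SD within vehicle groups was 0.33, 0.54, 0.23 and 0.14. Inmt thus had the widest spread among animals given vehicle alone. After each group mean was removed, every pair of genes was positively correlated among these animals. Pearson's r was 0.53 for Oat and Cyp2e1 (rho 0.55), 0.49 for Inmt and Cyp2e1 (rho 0.45), 0.45 for Oat and Inmt (rho 0.43), 0.41 for Glul and Cyp2e1 (rho 0.43), 0.38 for Inmt and Glul (rho 0.34) and 0.33 for Oat and Glul (rho 0.29). The two-sided permutation p, with values permuted within groups, was 1e-05 (the smallest that 100000 permutations can give), 2e-05, 8e-05, 9e-05, 0.00278 and 0.00936 in that order. Adjusted over the 6 pairs these were 6e-05, 6e-05, 0.000135, 0.000135, 0.00334 and 0.00936, and the adjusted p of rho ran from 6e-05 to 0.0137. Without the 2 animals farthest from the median, r was 0.51, 0.45, 0.44, 0.40, 0.32 and 0.31. The vehicle animals included animal 3 of day 7 and animal 3 of day 14 from the block of 2-AAF and PB. Their arrays held muscle or pancreas transcripts. The part of other tissue in these correlations was not tested, and other pairs of genes were not set beside them. Cyp2e1, which rarely followed Oat or Inmt under a compound, thus had the highest r with both among vehicle animals. The difference between the 2 settings was not tested. The Cyp2e1 probe set had a mean of 13.79 over all samples, rank 43 of 15866. Whether so strong a signal narrows its changes was also not tested.

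The 3 probe sets of Glul gave different counts. The one used above was called lower in 8 groups and higher in 2, probe set 1367632_at in 15 and 1, and probe set 1367633_at in 8 and 4. At least 1 was lower in 19 groups, exactly 1 in 11, exactly 2 in 4, and all 3 in 4, which were Aap at 24 and 48 hours, DES on day 3 and DMN on day 7. On day 1 of PBO the changes were -0.86, -1.75 and -0.18 in that order, and on day 7 of TAA they were -0.74, -1.24 and -0.51. On day 14 of ETH all 3 rose, by 1.18, 1.04 and 1.29. Probe set 1367633_at was lower on days 3, 7 and 14 of nifedipine, a calcium channel blocker, with a change of -0.96 on day 3 (adjusted p = 0.00061), -0.81 on day 7 (0.00356) and -0.996 on day 14 (0.000334), while the other 2 stayed between -0.24 and 0.15. It was also higher on day 7 of AA, by 1.01. On days 7 and 14 of DHEA and of PB, only 1367632_at was lower. Where on the transcript each probe set lies was not analysed here.

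**Figure D4:**
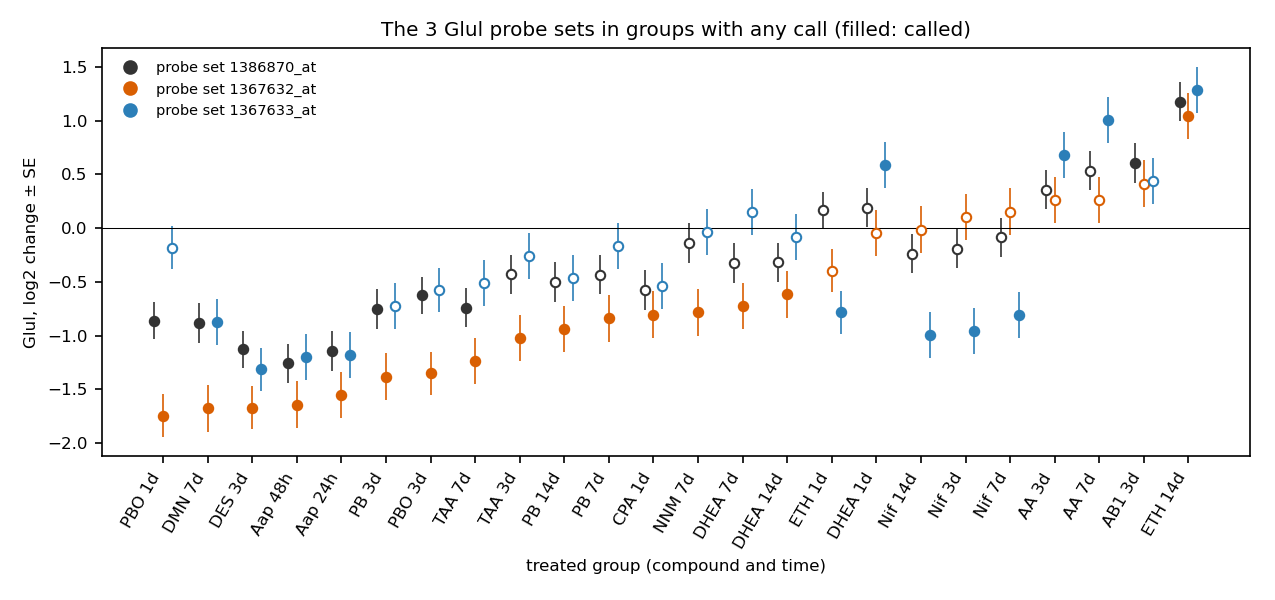
Log2 change ± SE of the 3 Glul probe sets in the treated groups in which any of them was called, with filled points where the probe set was called. All 3 were lower in 4 groups and higher on day 14 of ETH, while 1367633_at alone was lower in 3 nifedipine groups.

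Other genes of the pericentral zone, 17 measured, were set beside the 4. The groups with 3 or 4 of the genes lower come first. At 48 hours of Aap 10 of 17 fell and 1 rose (median change -0.73, against -0.06 over all probe sets), and at 24 hours 8 fell and 1 rose (median -0.46 against -0.04). At 48 hours Cyp7a1, the rate-limiting enzyme of bile acid synthesis, fell by 3.69, and the changes were -2.79 for Car3 (carbonic anhydrase), -2.41 for Cyp1a2, -2.40 for Avpr1a (a vasopressin receptor) and -2.07 for Gulo, the last enzyme of vitamin C synthesis. On day 7 of DMN 6 fell and 0 rose (median -0.33), led by Avpr1a at -1.45 and Cyp1a2 at -1.34, and 8 of 17 were lower at an unadjusted p under 0.05. On day 3 of PBO 4 fell and 1 rose (median -0.36). TAA on day 7 lowered 2, Nr1i3 (the receptor CAR, -1.01) and Slc13a3 (-0.87), and Por rose by 0.76. Por, the reductase that feeds electrons to cytochromes P450, was also the 1 gene that rose in the Aap and PBO groups, by 1.01 and 1.72 at 48 and 24 hours of Aap and by 1.19 for PBO.

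The groups with Oat and Inmt lower and Glul not were uneven in this list. Under NNK, NNM and NPip 0 or 1 of 17 fell in each group, and at an unadjusted p under 0.05 between 1 and 3 were lower. The 1 was Avpr1a on day 14 of NNK (-1.11), days 3 and 7 of NNM (-1.48 and -2.31) and days 7 and 14 of NPip (-1.48 and -2.62). For AA on day 7, 0 of 17 were called (2 lower at an unadjusted p under 0.05). Under ETH 5, 9 and 3 fell on days 1, 3 and 14. Cyp7a1 rose on days 1 and 14 of ETH (1.69 and 1.96), and Por rose on day 14 (0.79). On day 3 of TAA, Avpr1a (-1.53), Nr1i3 (-0.89) and Slc13a3 (-0.87) fell and Por rose (0.92). Over all 98 groups, Avpr1a was lower in 22, Gulo in 21, Rgn in 18, Cyp1a2 in 14 and Car3 in 12, and the Wnt target and pathway genes Axin2, Lgr5, Tbx3 and Nkd1 were called in 0. At an unadjusted p under 0.05 these 4 were lower in 17, 8, 9 and 2 groups and higher in 2, 0, 14 and 3. Axin2 changed by less than 1.5-fold at 48 hours of Aap (-0.56, adjusted p = 0.000191) and on day 3 of PBO (-0.42, 0.014). Its changes were 0.03 at 24 hours of Aap (0.884), -0.33 on day 7 of DMN (0.144) and -0.03 on day 7 of TAA (0.942). At 48 hours of Aap, Lgr5, Tbx3 and Nkd1 changed by -0.16, -0.26 and -0.17 (adjusted p = 0.0466, 0.0402 and 0.0204). The mean log2 signals of Lgr5 (5.15) and Nkd1 (6.93) lay below the lowest array median, 7.38. Those of Axin2 (7.84) and Tbx3 (8.07) lay above the highest, 7.49. A low signal leaves less room for a fall, so absent calls do not show that Lgr5 and Nkd1 were unchanged.

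Genes of the periportal zone, 14 measured, showed which of these groups also lowered the other end of the lobule. With DMN and with TAA on day 7, 0 of 14 were lower, also at an unadjusted p under 0.05, and their medians were 0.05 and 0.27. None of the 7 groups of NNK, NNM and NPip had any called (0 to 3 lower at an unadjusted p under 0.05). At 48 hours of Aap 7 of 14 fell (median -0.66), among them the urea cycle genes Otc (-1.20), Cps1 (-0.93) and Ass1 (-0.75), and at 24 hours 3 fell. On days 1 and 3 of PBO 7 and 6 fell, on day 3 among them Sds (-1.60), Hal (-1.25) and Cps1 (-1.02). ETH lowered 5 on days 1 and 3, and AA 3 on day 7. Asl, also of the urea cycle, went the other way, and was higher at 24 hours of Aap (1.05), on days 3 and 14 of ETH (1.24 and 0.80) and on day 3 of TAA (0.59), where 1.01% of probe sets were called higher. The pan-hepatocyte list, 12 genes, had medians between -0.18 and 0.05 in all 18 groups with 2 or more of the 4 genes lower, and at most 2 of its genes were lower and 2 higher in any of them. The secreted proteins Alb, Ttr, Serpina1, Fgb and Ambp were called in none. Apoa2, an apolipoprotein, was lower at 24 and 48 hours of Aap (-0.94 and -0.96) and on day 3 of ETH (-1.59), and Apoa1 was higher on day 7 of AA (0.65) and day 14 of ETH (0.78). Of the hepatocyte transcription factors, Cebpa was lower at 48 hours of Aap and on day 1 of ETH, Foxa2 at 24 hours of Aap (-0.93) and Hnf4a on day 7 of NNK (-0.61), while Foxa3 was higher at 48 hours of Aap and on day 3 of ETH, and Hnf4a on day 1 of PBO and day 7 of AA.

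**Figure D5:**
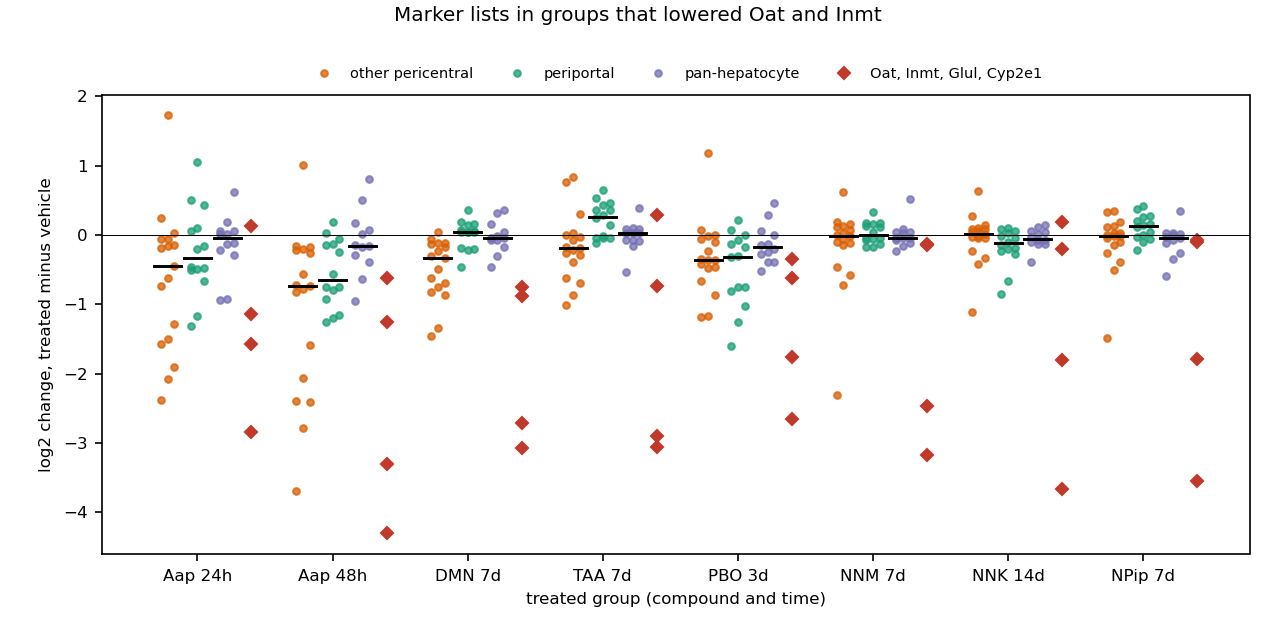
Log2 change of each other pericentral, periportal and pan-hepatocyte gene (dots), the list median (bar) and the 4 genes described here (red diamonds), in 8 treated groups. On day 7 of DMN and TAA the periportal medians were 0.05 and 0.27, while Oat and Inmt lay at -2.71 or lower.

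Of 15 measured genes that handle ornithine, proline, glutamate and glutamine around Oat and Glul, Prodh was the one lowered most widely. Its change was -2.29 at 48 hours of Aap, -1.54 on day 3 of PBO, -1.15 on day 7 of TAA and -0.62 on day 7 of DMN. Gls2, the liver glutaminase, was lower in 23 of 98 groups and Arg1 in 0 (6 at an unadjusted p under 0.05), while Odc1, which turns ornithine into putrescine, was higher in 17. The whole list had 7 lower and 2 higher at 48 hours of Aap, 9 and 1 on day 3 of ETH, 3 and 0 on day 3 of PBO, 2 and 0 on day 7 of DMN, and 1 and 1 on day 7 of TAA. Under NNK, NNM and NPip, where Oat itself was lower, it had 0 or 1 lower and 0 higher. Otc, Gls2 and Arg1 stand in this list and in the periportal one, and Slc1a2 in this and the pericentral one.

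Markers of other liver cells moved in some of these groups. Their rises stand beside the share of all probe sets called higher, which was 6.72% and 6.01% at 24 and 48 hours of Aap, 4.58% and 7.9% on days 1 and 3 of ETH and 3.38% on day 7 of AA. It was lower on day 7 of DMN (0.945%), TAA (0.87%), NNM (0.719%) and NPip (1.42%), on day 3 of PBO (1.42%) and on day 14 of NNK (0.75%). The macrophage list, 8 genes, had 4 higher and 1 lower at 48 hours of Aap, with a list mean of 10.52 to 10.88 in treated against 9.43 to 9.60 in saline animals, and Gpnmb, a gene of lipid-laden macrophages, rose by 4.28 there. At 24 hours of Aap 3 were higher and 2 lower. On day 7 of DMN 5 were higher and 1 lower (list mean 9.86 to 10.04 against 8.99 to 9.41), on day 7 of TAA 0 and 1 (9.34 to 9.63 against 8.95 to 9.38), and on day 3 of PBO none was called (8.81 to 9.17 against 9.14 to 9.42). On day 3 of TAA, where Oat and Inmt were also lower, Lyz2 rose by 1.27, among 1.01% of probe sets called higher. Gpnmb rose on day 7 of AA (2.63) and NNM (1.71) and on day 14 of NPip (1.21). Under ETH it rose on days 1 and 14 (1.68 and 1.49). Lgals3 rose in the same groups (1.71, 1.14, 1.04, 1.35 and 0.94 in that order) and on day 7 of NPip (1.29). Cd68 and Clec4f rose on day 7 of AA (1.55 and 1.06), day 1 of ETH (0.93 and 1.32) and day 14 of ETH (1.15 and 1.20). Csf1r and Ctss rose on day 7 of AA (1.10 and 1.32). Lyz2 rose on days 1 and 14 of ETH (2.06 and 2.29), and Ctss on day 14 (1.05). In all of these groups but that of AA, Cd14 was called lower. The share called higher was 0.655% on day 14 of NPip and 4.29% on day 14 of ETH. On day 14 of NNK 1 was lower, Cd14 by -2.40, and on day 3 of ETH 7 were higher. Of 12 stellate and fibroblast genes, 4 were higher at 48 hours of Aap and on day 7 of NNM, 3 on day 7 of NPip and of AA, and 2 on day 7 of DMN. One of the 3 for NPip was Des (1.03), which muscle also expresses, in the group whose animal 3 had muscle transcripts. Lrat, which stores vitamin A in quiescent stellate cells, was lower at 24 and 48 hours of Aap (-1.30 and -1.05), and so was Col3a1 at 24 hours (-0.80). In the 18 groups at most 2 of 8 bile duct genes, 2 of 5 endothelial genes and 2 of 10 lymphocyte genes were higher. Of these lists only an endothelial gene was lower, Kdr, a receptor of vascular growth factor, on day 7 of DMN (-0.79), at 24 hours of Aap (-0.71) and on day 3 of PBO (-0.65). Muscle genes were higher on day 7 of NPip (7 of 9) and pancreas genes on day 14 of NNK (7 of 9), from the single arrays named above. The part of other cells in the changes of the 4 genes was not tested.

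The study sorts compounds into classes, and at the last time of each compound the 2 genotoxic carcinogens of its main set (CIDB and DMN) were set against 8 non-genotoxic ones (PB, PBO, DHEA, AA, MPy, Mcarb, DES and ETH), with the compound as the replicate. The mean change was -1.87 against -0.92 for Oat, a difference of -0.96 ± 0.73 (SE, adjusted p = 0.751). For Inmt it was -1.68 against -0.52 (difference -1.17 ± 0.95, adjusted p = 0.772), for Glul -0.44 against -0.12 (-0.33 ± 0.44, 0.875) and for Cyp2e1 -0.09 against 0.17 (-0.26 ± 0.27, 0.826). None of the 4 genes was called, among 14 probe sets that were and 1478 at an unadjusted p under 0.05. Without DMN the difference was 0.25 for Oat, so that its sign turned, and -0.14 for Inmt, and without CIDB it was -2.16 and -2.20.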

How the data were processed

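RNA from each liver was hybridised to an Affymetrix RAE230A array, and the values are log2 signals deposited by the authors, who read CEL files from Microarray Suite and normalised all arrays with RMA in the affy package. The RMA version and a genome build are not given in the sources used here. Array number and not read depth limits precision. Of 15866 probe sets, 12783 had 1 gene symbol (12748 matched by gene identifier) and 312 had several, from which no gene was named. In 4 vehicle groups of 6 arrays, arrays were paired to give the lowest total SD of the difference between arrays over 6113 probe sets. The SD was 0.124 to 0.228 in these 12 pairs (median 0.146). It was at least 0.169 (median 0.241) in 448 other pairs of arrays within a group. The pairs were chosen by this SD, so their lower values are in part due to the choice. Each of the 12 pairs was averaged, which left 116 of 128 vehicle samples, a change from the planned design.

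One mean per group was fitted to all samples with limma 3.58.1 in R 4.3.3 (residual df 273, prior df 4.58), each treated group was set against the vehicle group its label names, and Benjamini-Hochberg adjustment ran over all probe sets of a comparison. A call needed 1.5-fold and an adjusted p under 0.05. Differences between the last and first time, between NNK and NPip at the same dose and day, and between classes of compounds (limma over compounds) used the same rule. Scripts were tested on simulated data. Further tools were data.table (version 1.17.8), Python 3.11.15, numpy 2.4.6 and matplotlib 3.10.9.

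The genes and the lists (other pericentral, periportal, ornithine and glutamate, pan-hepatocyte, macrophage, stellate, bile duct, endothelial, lymphocyte, muscle, pancreas) were chosen with earlier results of these data known. Compounds with 3 or more of the 4 genes lower in any group were described by animal, others mostly by changes and ranges, and from each list up to 5 genes were to be named. Single animals, genes and probe sets named beyond this were chosen after their values were seen. In 80 comparisons with shared animal numbers, same-numbered animals had a mean correlation of 0.0158, and in 4 every pair was over 0.1, so the numbers do not pair animals. Alternatives were fits of each comparison alone, quantile normalization, only probe sets whose mean was 6 or more, the number as a block, leaving out animals, other fold thresholds, any Glul probe set and, chosen after seeing the data, every array as its own sample and leaving out 7 arrays with muscle or pancreas transcripts.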

Additional observations from a re-analysis of the deposited data

Results flagged for a closer look

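The change against vehicle differed between the last and the first time of a compound in 7 cases. For Aap, 48 hours minus 6 hours was -3.78 for Oat, -4.37 for Inmt, -1.67 for Glul and -0.92 for Cyp2e1 on the log2 scale. For DMN, day 7 minus day 3 was -0.76 for Cyp2e1. This last call was lost without treated animals 1 or 3 or without vehicle animals 1 or 2. For ETH, day 14 minus day 1 was 1.01 for Glul and 0.67 for Cyp2e1, the latter lost without treated animals 2. In 2 vehicle groups of 4 animals, a single animal far from the others was looked for in each of the 4 genes, 8 tests in all, of which chance alone passes about 1 in 20. It was found for Inmt in the vehicle group of day 3 that served PBO, DES and ETH, where 1 animal read 11.15 and the others 10.86, 10.88 and 10.90, so that the gap to the nearest animal was 0.863 of the whole range. That whole range was smaller than the SD of Inmt within vehicle groups (0.54), so the animal stood out only against a narrow group.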

How the results depend on the processing

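None of 69 called changes and time differences turned its direction under an alternative. Of them, 69 stayed called with a filter at a mean of 6, with every array as its own sample and without 7 arrays with transcripts of another tissue, 68 with quantile normalization and 57 at 2-fold. With each comparison fitted on its own groups 51 of 62 stayed called, Cyp2e1 was lower in 1 group (Aap at 48 hours was lost) and all 4 genes in 1. With no fold threshold Cyp2e1 was lower in 6 groups. At 2-fold Glul was lower in 3 groups and Cyp2e1 in 0, 3 or more genes in 2 and all 4 in 0. With any Glul probe set, Glul was lower in 19 groups and 3 or more genes in 8. Leaving out 1 animal number at a time, Oat was lower in 22 to 28 groups, Inmt in 20 to 25, Glul in 6 to 8, Cyp2e1 in 2 to 3, Oat and Inmt together in 14 to 18, 3 or more genes in 4 to 5, and all 4 in 1 to 2, with 1 without the third treated animals. With the replicate number as a block, Oat was lower in 27 groups, Inmt in 24, Glul in 8, Cyp2e1 in 2, Oat and Inmt in 18, 3 or more genes in 5 and all 4 in 2. The block lost 1 call, Inmt higher on day 3 of DES (1.35, adjusted p = 0.0643). The cause of these differences was not tested. With wider classes the class difference was -0.66 for Oat and -1.48 for Inmt, and on day 3 it was -0.11 and -1.40, none called. The class difference, which was not called, turned its sign without DMN for Oat (0.25), Glul (0.11) and Cyp2e1 (0.41), with wider classes for Glul (0.01), and on day 3 for Glul (0.09) and Cyp2e1 (0.11). Groups of 3 animals limit what small changes can be called, most of all for Inmt.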
